A study of Mus musculus with 4 samples.

Results

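The β-cells of untreated mouse islets were described here from 1 single-cell RNA-seq library. They were chosen by measured values. A barcode was kept when 200 to 4000 genes were detected and at most 12% of its unique molecular identifiers (UMIs, which count captured transcripts) came from mitochondrially encoded genes. A kept cell was called a β-cell when Ins1 and Ins2 together made up at least 5% of its UMIs and Gcg, Sst and Ppy, the hormone genes of the other endocrine types, each made up less than 1%. Of 3486 barcodes, 1521 were kept, and 1170 of these were β-cells (76.9%, exact binomial 95% interval 74.7 to 79.0, counting error only). The series as a whole held 12571 barcodes, of which 7471 were kept.

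The study asked how single islet cells respond to inflammatory cytokines. Islets of 8 adult male C57BL6/J mice (strain C57BL/6 in the labels) were isolated with collagenase, pooled, and only then separated into 4 samples, so that no sample stands for an animal. One sample received no cytokine and the others IL-1B, IFNg or IL-1B and IFNg for 6 h, after which the islets were dissociated with EDTA and trypsin. No allele or transgene distinguished the groups. Each condition had 1 library, so differences between cells had no replicate check, no test was run and no p-value is given. The 3 treated libraries were used only to see whether a pattern of the untreated β-cells was met again, by the same rule, in 1123, 1256 and 1255 β-cells, respectively. The untreated library shared 4, 4 and 2 barcodes with these, respectively. The β-cells of the treated libraries were shallower, at medians of 8327, 11101 and 12209 UMIs, respectively, against 17220.5 in the untreated library. A pattern that was weaker there may therefore differ in depth as well as in treatment, and the part of depth was not tested.

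β-cells sense glucose by taking it up and metabolising it, which closes ATP-sensitive potassium channels and triggers the release of insulin from dense-core granules. Proinsulin is folded in the endoplasmic reticulum and cut by prohormone convertases inside the granules. Mature β-cells are known for Mafa, Ucn3, Slc2a2 and G6pc2, and their heavy secretory load engages the unfolded protein response, in which chaperones of the endoplasmic reticulum are raised, and the integrated stress response, in which ATF4 and CHOP drive amino acid and stress genes. Isolation and dissociation of tissue are known to raise immediate early and heat shock genes.

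The hormone genes dominated the RNA of these cells. Ins2, an insulin gene of the mouse, was the most abundant transcript at 297121 UMIs per 1000000 UMIs of all β-cells (CPM; exact Poisson 95% interval 296881 to 297361). Ins1, the other insulin gene, followed at 125765 CPM and Iapp, which encodes the islet amyloid polypeptide released with insulin, at 53297 CPM. Together the 3 genes held 47.6% of the UMIs, and the 20 most abundant genes held 55.7%. Outside the hormones the most abundant transcripts were mt-Co3 at 11762 CPM, other mitochondrial genes, the nuclear non-coding RNA Malat1 at 7904 CPM and Chga, the granule protein chromogranin A, at 5423 CPM. Mitochondrially encoded genes held 5.22% of the UMIs and 95 ribosomal protein genes 7.09%.

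The promoter of Ins1 is shown because the gene carries the hormone load. It is the RefSeq sequence of GRCm38.p6, chr19:52264047-52264346 on the plus strand, from 250 bases before to 50 after the annotated start. Whether RNA of these cells begins at that start was not tested. Capitals mark the insulin E box, CATCTG or its reverse CAGATG.
Ins1: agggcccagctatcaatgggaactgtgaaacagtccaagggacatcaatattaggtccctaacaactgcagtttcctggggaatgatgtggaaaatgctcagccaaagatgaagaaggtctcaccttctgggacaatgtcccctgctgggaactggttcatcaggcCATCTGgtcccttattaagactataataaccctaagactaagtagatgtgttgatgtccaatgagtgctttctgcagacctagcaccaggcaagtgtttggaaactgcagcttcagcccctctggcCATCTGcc
The letters stood at 2 places, the nearer to the annotated start lying after it. They were present on either strand in 17.2% of 27025 mouse promoters of this length, and in 3 of the 17 genes of the maturity list for which a promoter was given (Ucn3, Nkx2-2 and Ffar1).

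The β-cell label held against other markers. G6pc2, the islet glucose-6-phosphatase subunit, was detected in 92.3% of β-cells (90.6 to 93.8), in 14.6% of 82 α-cells (Gcg at least 1%) and in 2.27% of 88 cells with no hormone at 1%. The median depths of these classes were 17220.5, 10843.5 and 8327 UMIs, and after thinning each cell to 5000 UMIs the shares were 72.6%, 5.56% and 0%. Mafa, Slc2a2, Ucn3, Pdx1 and Nkx6-1, none of which the rule used, were detected in 72.5% to 89.2% of β-cells and in 3.66% to 12.2% of α-cells.

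The shares of β-cells with a transcript of another hormone were near those in cells with no hormone. Gcg was detected in 85.2% of β-cells, but in 63.6% of cells with no hormone at 1%. Thinned to 5000 UMIs, the shares were 46.7% and 47.2%, for Ppy 44.2% and 45.8%, for Pyy 23.2% and 27.8%, and for Sst 13.8% and 12.5%. These shares are near background and are not read as expression. The summed level of Pyy, however, was 293 CPM in β-cells against 151 CPM in cells with no hormone, and 9 of the 1170 β-cells held at least 50% of its UMIs there. C1qa, a complement gene known from macrophages, was detected in 49.8% of β-cells at 71.1 CPM, whereas its partners C1qb and C1qc stood at 1.71 and 1.61 CPM and the macrophage gene Lyz2 at 3.98 CPM. In α-cells C1qa was detected in 34.1%. Thinned, the shares were 24.0% in β-cells, 13.9% in α-cells and 34.7% in cells with no hormone, where its summed level was 1244 CPM.

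A few β-cell barcodes held many UMIs of another cell type. For 13 acinar markers, 668 of the 1170 β-cells had at least 1 UMI, but 4 cells had 20 or more and held 39.7% of all of them. For 8 macrophage markers without C1qa, 101 cells had any, and 4 cells with 5 or more held 77.4%. Endothelial markers were found in 60 cells and mesenchymal markers in 19, with 2 UMIs and 1 UMI at most in a cell. In the duct, δ-cell and α-cell lists a few genes were spread over many β-cells. These were the keratin genes Krt7 and Krt18, with 4036 and 3179 UMIs, and Cldn3 (598) among 8 duct markers, Fam159b (3300) among the δ-cell markers, where Ghsr and Prg4 were at 0, and Tmem27 (8922), Ttr (3873) and Dpp4 (936) among the α-cell markers. The 8 cells with acinar or macrophage UMIs were kept, and genes that rest on them are named as such below.

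The insulin share varied widely between cells. The median β-cell had 41.4% of its UMIs from Ins1 and Ins2 (95% interval of the median 40.7 to 42.3), the 5th and 95th percentiles were 20.5% and 56.0%, and the extremes were 5.18% and 78.9%. The bulk lay far from the threshold, with 1115 cells at 20% or more, 34 at 10 to 20% and 21 at 5 to 10%. The lowest cells inside were at 5.18%, 5.54% and 5.58%, and the highest outside at 4.82%, 4.70% and 4.63%. Of the 1197 kept cells at 5% or more, 27 fell out because another hormone reached 1%, in 16 cells Ppy, in 8 Gcg and in 5 Sst. The highest β-cell had 0.741% Ppy and the lowest excluded cell 1.01%, and for Sst these were 0.727% and 1.38%, and for Gcg 0.239% and 1.09%. A further 623 barcodes met the hormone limits with more than 4000 detected genes, the nearest at 4003. They had a median of 28022 UMIs and 41.1% insulin, so that the deepest insulin-rich barcodes were not members. The mitochondrial limit lay between cells at 11.97% and 12.003%, and 330 barcodes met the hormone limits above it.

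The insulin share was nearly as variable among cells of the same depth. Insulin UMIs are part of a cell's total, and the share was correlated with total UMIs over cells with a Spearman correlation of 0.60 (n = 1170, a description). Depth was therefore taken from the UMIs outside Ins1, Ins2, Iapp, Gcg, Sst, Ppy and Pyy, a median of 9326.5 per cell, and cells were divided into 10 deciles of 117 cells by it. The median insulin share of the deciles lay between 37.6% and 44.4%. The standard deviation over cells was 11.4 percentage points, and 11.3 within deciles, or 98.6% of the variance. The shallowest decile was the widest, with quartiles of 22.8% and 52.4%.

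**Figure D1:**
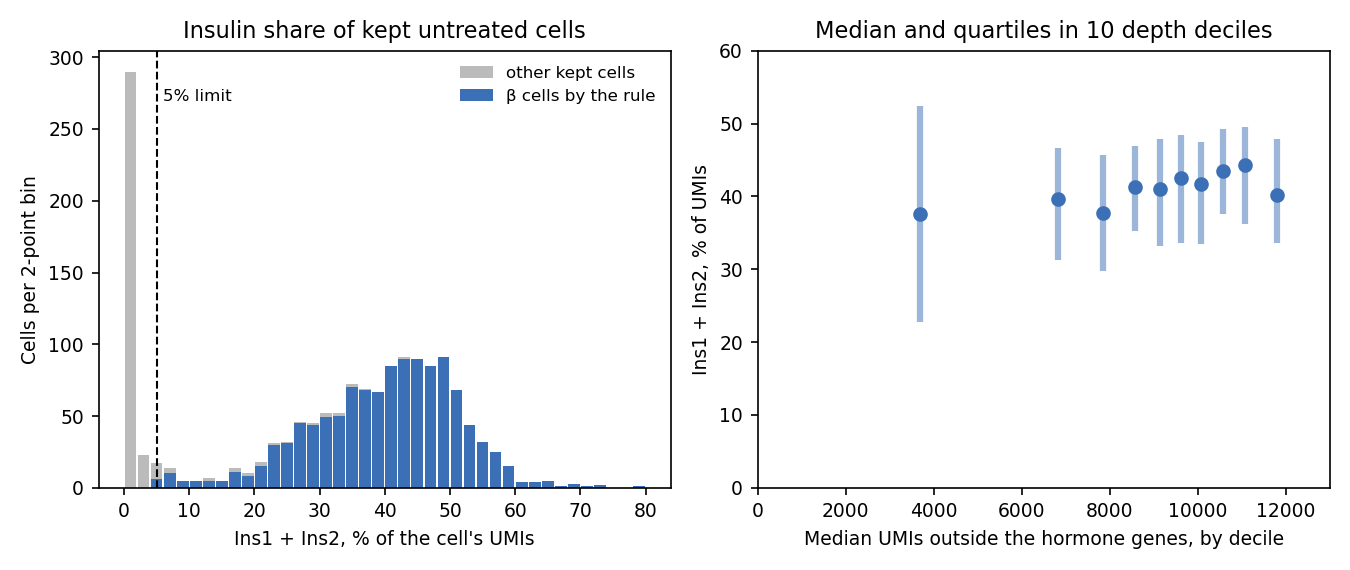
Left, number of kept untreated cells (y axis) by the share of UMIs from Ins1 and Ins2 in 2-point bins (x axis), β-cells by the rule in color and other kept cells in gray. Right, median insulin share with its quartiles (y axis) in 10 deciles of UMIs outside the hormone genes (x axis, decile median); the medians stay between 37.6% and 44.4%.

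Ins1, Ins2 and Iapp did not move in step. The median cell had 2.40 Ins2 UMIs per Ins1 UMI (2.37 to 2.44), with 5th and 95th percentiles of 1.61 and 4.17. Iapp had a median share of 5.06% and a median of 12.5 UMIs per 100 insulin UMIs, from 5.82 at the 5th to 29.5 at the 95th percentile. In the quartile of cells with the highest insulin load, Iapp was at 1128 UMIs per 10000 UMIs outside the hormone genes, against 925 in the lowest quartile. That is a ratio of 1.22, where Ins1 had 3.41 and Ins2 2.87 by the choice of the cells.

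Cell-to-cell variation of each gene was then measured as a biological coefficient of variation (CV), the spread left after removing counting noise and depth. A CV below 0 is printed where a gene varied less than counting noise. Of 16361 genes with a UMI, 8293 outside the hormones were detected in at least 10% of β-cells. Their median CV was 0.283, and 1699 had a CV of at least 0.5 (20.5%). A CV of 1 or more was met in 245 genes and of 2 or more in 36, while 1995 were below 0. Genes under 10 CPM passed 0.5 more often (37.0%) than genes at 30 to 100 CPM (10.1%). Over genes detected in at least 25% of cells the share was 11.7% (579 of 4956).

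Genes of the respiratory chain were more even than the typical gene, whereas genes of secretion were not. None of 26 nuclear oxidative phosphorylation genes reached a CV of 0.5 (median 0.19), nor did any of 15 exocytosis genes (median 0.28). Of 16 granule genes, 3 did (median 0.35), from Pcsk2, a prohormone convertase, at 0.26 to Chgb, chromogranin B, at 0.60. The median of exocytosis genes was near that of all genes and the median of granule genes lay above it, and genes above 300 CPM passed 0.5 in 12.6%. Genes of glucose uptake and coupling had a median of 0.39 with 5 of 20 past 0.5, and chaperones of the unfolded protein response 0.43 with 6 of 20, from the lectin chaperone Canx at 0.21 to Sdf2l1 at 0.71.

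Maturity genes differed among themselves. Of 24 measured members of the list, 11 had a CV of at least 0.5 (median 0.48), and 1 further member, the incretin receptor gene Glp1r, was detected in 6.58% of cells and not measured. The transcription factors Mnx1 and Mafa were at 0.90 and 0.88 and the glucose transporter Slc2a2 at 0.83, whereas the factors Foxa2 and Pdx1 stood at 0.28 and 0.35 and G6pc2 at 0.38. Ucn3, the peptide urocortin 3, was at 0.52. Per 10000 UMIs outside the hormones, Mafa was at 0 in 11.5% of cells, at a median of 8.07, and at 34.0 and 77.7 at the 95th percentile and the highest cell. G6pc2, at a lower median of 5.26, reached 11.3 and 27.2 at the same points. The Mafa level thus covered a wider range of cells than that of G6pc2.

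Several stress lists varied widely, others less. All 14 measured genes of the integrated stress response had a CV of at least 0.5 (median 0.89), among them Trib3 at 2.33, the stress-induced Nupr1 at 1.97, Ddit3, which encodes CHOP, at 1.72 and Atf4 at 0.56. The 18 glycolytic and hypoxia-linked genes had a median of 0.94 with 17 past 0.5, led by the oxidoreductase gene Ero1l at 2.18. The 14 immediate early genes had a median of 1.37, with Ier2 at 1.90 and Fos at 1.68, and only Jund, at 0.38, did not pass. Oxidative stress genes were mixed, with 10 of 18 past 0.5 and a median of 0.54, and so were heat shock genes, with 8 of 15 and a median of 0.57. Of the list of immature and other endocrine genes, 5 of 16 were detected in 10% of cells, and all 5 passed, with the highest median of these lists (1.95).

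**Figure D2:**
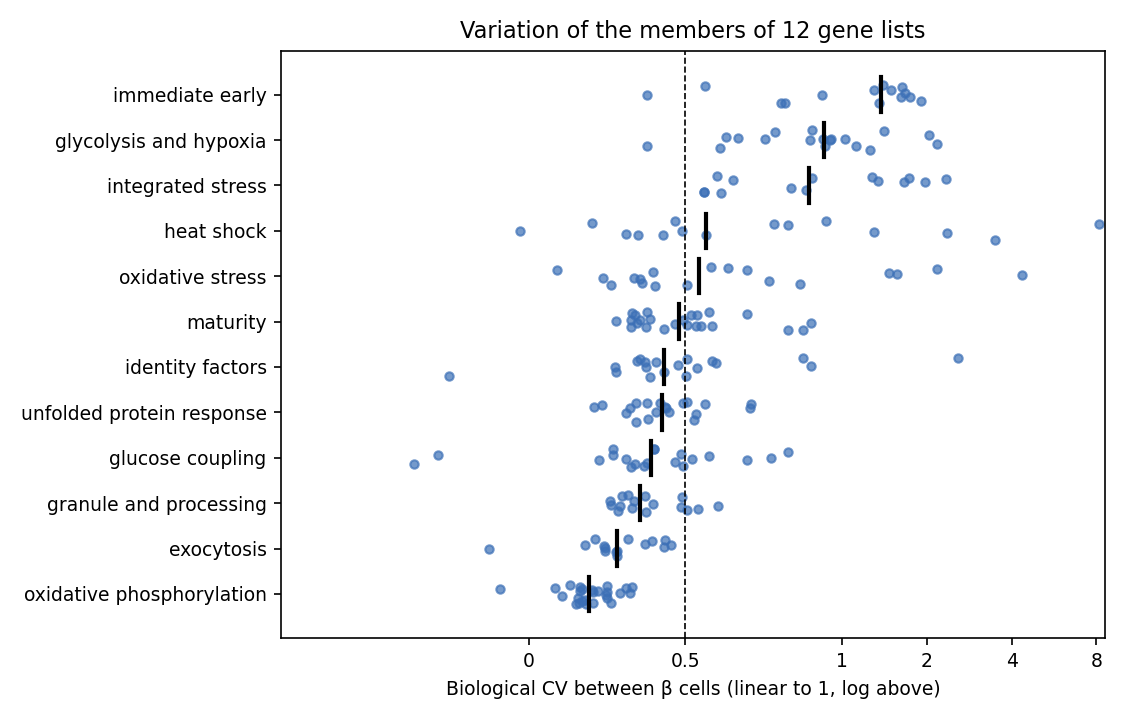
Biological CV between untreated β-cells (x axis, linear to 1 and logarithmic above) of each measured member of 12 gene lists (y axis). Points are genes and the dashed line is at 0.5. No gene of the oxidative phosphorylation and exocytosis lists is past the line, whereas all 14 of the integrated stress list are.

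Several of the highest CVs rested on a handful of cells. The 20 highest belonged to Prss2 (8.50), Hspa1a (8.14), Lgmn (7.57), Ctrb1 (7.13), Rbp4 (5.81), Try4, Hmox1 (4.36), Ctsz, Id3, Dnajb1 (3.48), Fabp5 (3.35), Crybb3 (3.20), Ambp, Msln (3.07), Plin2, Rcbtb2, Pdyn, Pigr, Hist3h2ba and Snhg11 (2.60). Prss2, Ctrb1 and Try4 encode pancreatic digestive enzymes of acinar cells. At least 50% of the Prss2 UMIs lay in 7 cells and of the Hspa1a UMIs in 5, and 1 cell held 22.7% of those of the lysosomal protease gene Lgmn. By contrast, this share took 214 cells for Mafa and 78 for Nupr1.

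**Figure D3:**
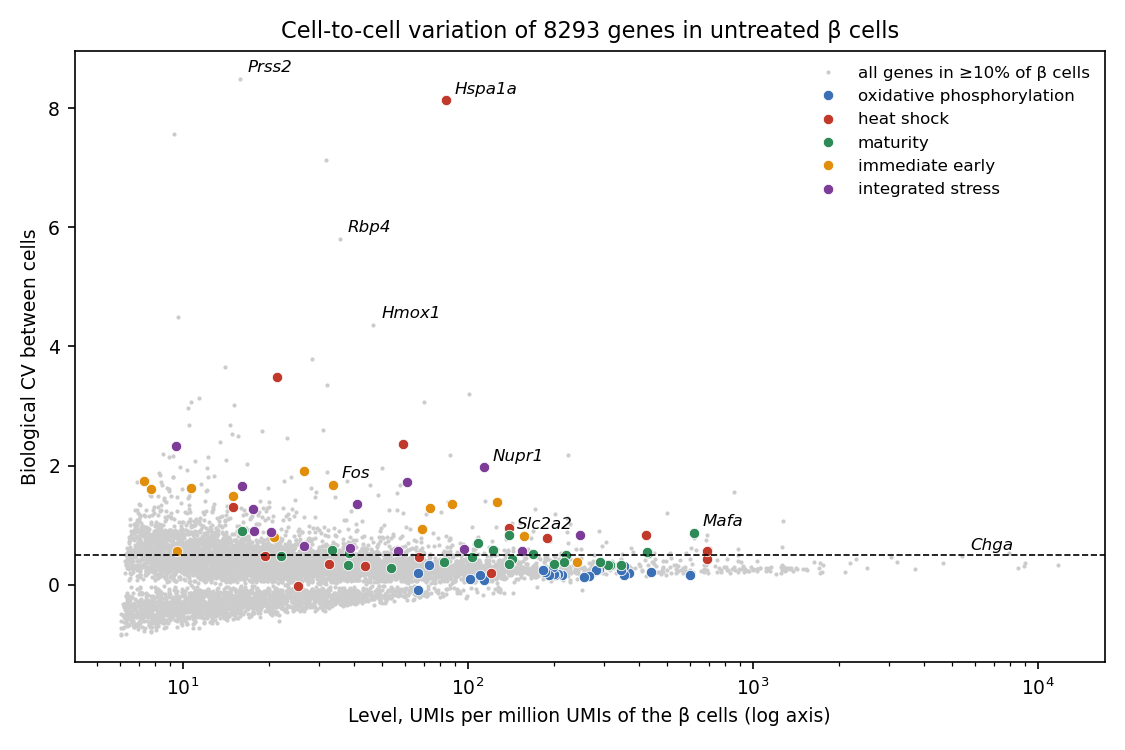
Biological CV between cells (y axis) against level in CPM (x axis, logarithmic) for the 8293 genes detected in at least 10% of untreated β-cells, gray, with gene lists in color. The dashed line is at 0.5, and Hspa1a stands among the highest at 8.14.

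The variation was met again to a degree in the treated islets. Of the 1699 genes, 1416 were detected in at least 10% of the β-cells with IFN-γ, and 864 of these again had a CV of at least 0.5, where 1789 of all 7574 genes did. With IL-1β these were 721 of 1087 (1877 of 6650), and with both 821 of 1164 (2228 of 6980).

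To describe what moved together, cells were ranked by a score within each depth decile, and the upper quartile (290 cells) was set against the lower (290 cells). A gene was counted when its summed level per 10000 UMIs outside the hormones differed by at least 1.5-fold, among genes with at least 200 UMIs in the 2 quartiles together and outside the scoring list. Intervals of ratios are exact 95% intervals for Poisson counts and cover counting error only, not differences between animals. The scores and levels of 1 cell share its total, so that more of any transcript lowers the level of the rest. The macrophage and acinar UMIs of the quartiles depended on the barcodes named above. Without the 4 cells highest in each, every quartile of the 7 comparisons held 21 to 38 macrophage UMIs and 243 to 312 acinar UMIs.

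Insulin-rich cells had more of the transcripts of some maturity and granule genes and less of most integrated stress and glycolysis genes. With the insulin load, the insulin UMIs per UMI outside the hormones, 118 of 4418 genes were higher (2.67%) and 113 lower (2.56%). Mafa was at 16.8 UMIs per 10000 in the upper quartile and 6.58 in the lower, a ratio of 2.55 (2.41 to 2.70), and at ratios of 3.01, 3.04 and 1.797 in the treated libraries (IL-1β, IFN-γ and both, the order kept below). Slc2a2 was at 3.73 and 1.45, a ratio of 2.57 (2.27 to 2.90), and Trpm5, a calcium-activated channel that supports insulin secretion, at 3.01 and 0.976, a ratio of 3.08 (2.67 to 3.57). In each of the treated libraries both were higher in insulin-rich cells. The glucose-6-phosphatase gene G6pc2 and the factor Pdx1 were nearly level, at ratios of 1.15 and 1.11.

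Of the 22 maturity genes with enough UMIs, 7 were higher and none lower (Mafa, Slc2a2, Ero1lb, Slc30a8, Trpm5, Ppp1r1a and Papss2), with a median of 0.23 on the log2 scale against a median near 0 over all 4418 genes. Slc30a8 carries zinc into insulin granules and Ero1lb, an oxidase, serves disulfide formation in proinsulin. Of 16 granule genes 3 were higher (Pcsk1, Cpe and Slc30a8, median 0.35), where Pcsk1 and Cpe cut and trim proinsulin. Other members had ratios below 1, such as Pam (0.78) and Ptprn (0.80) of the granule list and Rfx6 (0.80) and Foxa2 (0.85) of the maturity list. Of 20 genes of the unfolded protein response 4 were higher (Pdia6, Dnajb9, Sdf2l1 and Manf, median 0.16), and none of 26 oxidative phosphorylation genes was past the fold (median 0.02).

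On the other side, 7 of 9 integrated stress genes were lower in insulin-rich cells (median -0.88) and 11 of 17 glycolysis genes (median -0.76). In the treated libraries the integrated stress median was -0.053, -0.62 and -0.38 and the glycolysis median -0.54, -0.24 and -0.66, so that the integrated stress list was nearly level with IL-1β. Nupr1 was at 1.001 UMIs per 10000 in the upper and 3.61 in the lower quartile, 3.61-fold lower (3.14 to 4.16), and 2.27-, 3.48- and 3.58-fold lower in the treated libraries. The cell cycle inhibitor gene Cdkn1a was 4.40-fold lower and the tetraspanin gene Cd81 6.58-fold lower. The largest differences of all, for Lcn2, Lgals3 and Apoe, rested on 1 or 2 cells: without the 5 highest cells of each gene, Lcn2 was 4.71-fold lower, Lgals3 1.26-fold higher and Apoe 1.17-fold lower. C1qa was the gene with the largest ratio upward, 4.28 (3.57 to 5.16), at 2.47 and 0.577 UMIs per 10000, and the 8 other macrophage markers went the other way, with 21 UMIs in the upper and 431 in the lower quartile. Without the 4 cells highest in these markers, all in the lower quartile, the numbers were 21 and 34.

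With cells thinned to 5000 UMIs and ranked within depth bins, Nupr1, Cdkn1a and C1qa reversed (ratios of 1.11, 1.04 and 0.892), and Mafa, Slc2a2 and Trpm5 were at 1.23, 1.28 and 1.42. In thinned cells insulin and the rest have a fixed sum, so that such bins remove the insulin load itself by construction. Thinned without bins, which was added after the data were seen, Nupr1 and Cdkn1a were 3.57- and 4.41-fold lower and Mafa and C1qa were at ratios of 2.43 and 4.16. The relations did depend on what a cell's total was taken to be. With totals from all UMIs, insulin included, the median gene was at -0.44 on the log2 scale between the quartiles, and 2 maturity genes were higher and 1 lower of 23. Relative to that median, 4 of 23 were higher (Mafa, Slc2a2, Ero1lb and Trpm5), none of 16 granule and none of 20 unfolded protein genes was past the fold, and 4 of 10 integrated stress genes were lower. Mitochondrial shares of the quartiles were equal at medians of 9.43% and 9.44% of UMIs outside the hormones, and ribosomal shares were 12.5% and 13.9%. The part of these in the result was not tested.

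Of the 118 genes that were higher with the insulin load, 87 of 109 with at least 50 UMIs were also above 1 in the IL-1β library. In the IFN-γ library these were 108 of 118, and with both cytokines 93 of 115. Of the 113 lower, 86 of 107, 103 of 111 and 90 of 109 were below 1 in the same order. Over all tested genes with at least 50 UMIs, 38.8%, 43.0% and 34.6% were above 1 in these libraries and the rest below.

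**Figure D4:**
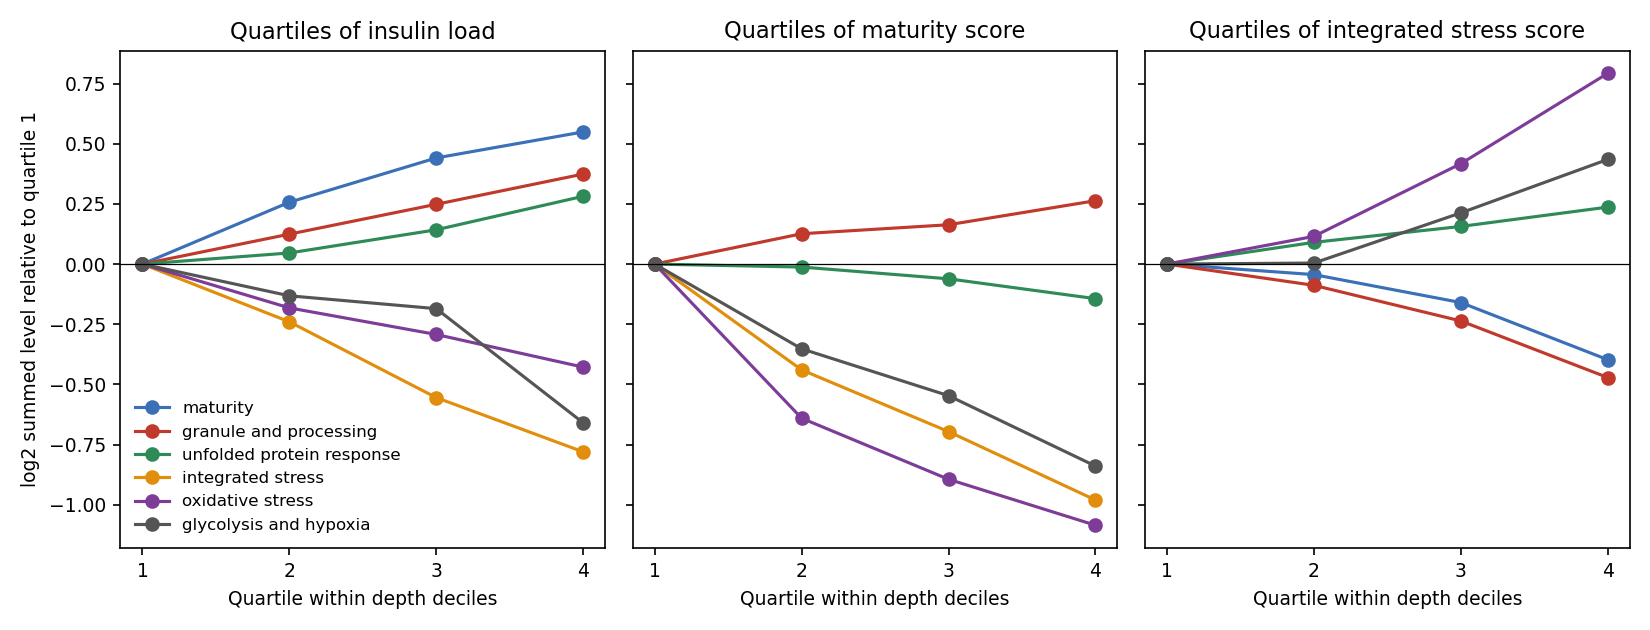
Summed level of gene lists in quartiles of cells by score, ranked within depth deciles (x axis, quartile 1 lowest), on the log2 scale relative to quartile 1 (y axis). Each line is 1 list and each point the sum over the cells of that quartile in the untreated library; with insulin load the maturity list goes from 69.8 to 102 UMIs per 10000 and the integrated stress list from 22.6 to 13.2.

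The maturity, granule, integrated stress and glycolysis lists moved across the quartiles, though not always in even steps. From the lowest to the highest quartile of insulin load, the summed maturity list was at 69.8, 83.4, 94.7 and 102 UMIs per 10000 and the granule list at 236, 257, 280 and 306. The integrated stress list was at 22.6, 19.2, 15.4 and 13.2, and the glycolysis list at 84.1, 76.7, 73.9 and 53.2, with its largest step into the highest quartile. Each of these 4 lists moved in 1 direction at every step, whereas oxidative phosphorylation genes began and ended at 119. Of the granule sum, Chga alone was at 84.3 in the lowest and 123.5 in the highest quartile.

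Cells of high maturity score had less of most glycolysis genes and of some stress genes. Between its quartiles 124 of 4387 genes were higher (2.83%) and 118 lower (2.69%). Higher genes included Tmsb15b2, of the thymosin family (3.58-fold, 2.83 to 4.56), the sulfotransferase gene Hs3st6 (2.87-fold), the prolactin receptor gene Prlr (2.43-fold) and Maob, a monoamine oxidase (2.41-fold). Tmsb15b2, Prlr and Maob were above 1 in the 3 treated libraries. Hs3st6 was at 4.49 with IFN-γ and had 8 UMIs with IL-1β and 14 with both, too few to compare.

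The lower genes were led by stress genes, after Lgals3 and Apoe, each of which lay mostly in 1 cell. Hmox1, heme oxygenase, was 19.1-fold lower in the cells of high maturity score (13.4 to 27.9), and 13.0-fold without its 5 highest cells. Mt2, a metallothionein that binds zinc, was at 1.49 and 9.94 UMIs per 10000, 6.69-fold lower (6.01 to 7.47). In the treated libraries Mt2 was 1.21-, 1.89- and 1.30-fold lower, closer to 1 than without cytokine. Hspa1a, an inducible heat shock protein gene, was 17.4-fold lower, and 6.11-fold without its 5 highest cells, but was higher with IL-1β and with both. By list, 12 of 18 glycolysis genes (median -0.90), 4 of 9 integrated stress genes, 5 of 14 heat shock genes and 3 of 18 oxidative stress genes were lower, and none was higher. None of 20 unfolded protein genes was past the fold (median -0.11), beside a median of 0.03 over all genes. In the treated libraries the glycolysis median was -0.33, -0.28 and -0.051, nearly level with both cytokines. The integrated stress median was -0.36, -0.81 and -0.45 there, against -0.56 without cytokine. The heat shock median was 0.10, -0.18 and 0.13, against -0.37 without cytokine.

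Mitochondrial shares moved with the maturity score, at medians of 10.1% in the upper and 8.30% in the lower quartile, and insulin shares at 45.9% and 35.0%. The 8 macrophage markers gave 25 and 414 UMIs, and 25 and 24 without the 4 cells highest in them. The part of these in the result was not tested. Of the 118 lower genes, 105 of 116 were below 1 with IFN-γ, but 78 of 113 with IL-1β and 75 of 115 with both, where 51.3%, 49.6% and 39.6% of all tested genes were.

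Mt1 and Mt2 were the most tightly joined pair among 1870 genes with at least 1000 UMIs, with a Pearson correlation of depth-corrected residuals of 0.91 over cells, and 0.84 to 0.85 in the treated libraries. Mt1 ranged from 0 in 5.81% of cells over a median of 8.03 UMIs per 10000 to 65.7 at the 95th percentile and 235 in the highest cell. The promoters of the pair are shown because the genes lie near each other and went together across cells. They are RefSeq sequences of GRCm38.p6 on the plus strand, Mt1 at chr8:94178839-94179138 and Mt2 at chr8:94172368-94172667. Capitals mark TGCACAC, a form of the metal response element, or its reverse GTGTGCA, and other forms of the element were not searched for.
Mt1: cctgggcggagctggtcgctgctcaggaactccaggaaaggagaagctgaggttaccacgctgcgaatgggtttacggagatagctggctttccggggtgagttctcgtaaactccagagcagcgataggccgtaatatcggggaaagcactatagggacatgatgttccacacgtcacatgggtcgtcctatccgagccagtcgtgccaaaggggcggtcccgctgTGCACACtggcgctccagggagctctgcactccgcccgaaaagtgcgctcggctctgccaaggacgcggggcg
Mt2: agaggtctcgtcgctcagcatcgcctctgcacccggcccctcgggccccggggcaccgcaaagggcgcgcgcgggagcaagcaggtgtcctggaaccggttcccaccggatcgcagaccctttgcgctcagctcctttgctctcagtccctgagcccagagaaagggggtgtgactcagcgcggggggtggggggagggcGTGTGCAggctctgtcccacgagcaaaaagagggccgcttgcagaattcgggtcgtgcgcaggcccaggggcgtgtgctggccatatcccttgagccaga
Both held the letters, as did 4.19% of 27025 promoters, and no other of the 16 oxidative stress genes with a promoter did. A match describes the letters and is not a site.

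The glycolysis genes formed the other tight group. The other 14 of the 15 highest correlations joined Mif, Aldoa, Gapdh, Pgk1, Tpi1, Pgam1 and Pkm, from Aldoa with Mif at 0.85 (0.55, 0.65 and 0.67 in the treated libraries) down to 0.75. Mif encodes a cytokine and was not a member of the list, while the others are enzymes of glycolysis. Gapdh was at a median of 9.38 UMIs per 10000 and at 34.7 at the 95th percentile. Bnip3, a mitophagy receptor known as a hypoxia target, had a median of 0.957 and a 95th percentile of 9.98, and its nearest gene was Mif at 0.73.

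Cells with a high glycolysis score, a comparison added after the data were seen, had 88 of 4395 genes higher (2%) and 72 lower (1.64%). Mif was at 26.4 and 2.59 UMIs per 10000, a ratio of 10.2 (9.39 to 11.02), and at 3.30, 3.74 and 4.51 in the treated libraries. The fatty acid binding protein gene Fabp5 had a ratio of 38.4, the collagen prolyl hydroxylase genes P4ha2 and P4ha1 11.7 and 5.50, and the mitochondrial Fam162a 7.94. All of these were above 1 in every treated library. Lower genes included Slc2a2, at 1.51 and 3.54 UMIs per 10000, and Mafa, Ero1lb and Ppp1r1a were the other maturity genes past the fold (4 of 23, median -0.31). All 4 were below 1 with IL-1β and IFN-γ, but with both cytokines Slc2a2 and Mafa were at ratios of 1.05. Mitochondrial shares had medians of 8.57% and 9.76% and insulin shares 39.1% and 45.0%. The part of these in the result was not tested.

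The promoter of Bnip3 is shown as that of a glycolysis and hypoxia list member with the hypoxia response element. It is the RefSeq sequence of GRCm38.p6, chr7:138909457-138909756 on the minus strand, and capitals mark ACGTG or its reverse CACGT, which overlap where both are present.
Bnip3: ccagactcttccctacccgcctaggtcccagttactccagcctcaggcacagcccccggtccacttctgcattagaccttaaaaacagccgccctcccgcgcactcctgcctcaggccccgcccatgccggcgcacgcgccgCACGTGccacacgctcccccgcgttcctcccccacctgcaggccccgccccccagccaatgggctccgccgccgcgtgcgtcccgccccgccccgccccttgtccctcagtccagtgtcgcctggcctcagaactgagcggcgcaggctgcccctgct
Of 16 list members with a promoter, 7 held these letters (Gapdh, Pgk1, Pgam1, Slc2a1, Bnip3, Ankrd37 and Ero1l, which RefSeq names Ero1a), against 19.7% of all promoters.

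The integrated stress score, also added after the data were seen, had 92 of 4453 genes higher (2.07%) and 89 lower (2%). Higher genes included Psph, of serine synthesis (5.32-fold, 3.69 to 7.87), Mthfd2, of mitochondrial folate metabolism (4.56-fold, 3.805 to 5.50), and the cationic amino acid transporter gene Slc7a1 (3.75-fold). These 3 were between 2.43- and 4.76-fold higher in the treated libraries. Hmox1, Hspa1b and Hspa1a had ratios of 13.4, 11.9 and 7.995, the latter pair 5.31 and 4.42 without the 5 highest cells of each gene, with Hmox1 above 1 in every treated library and both heat shock genes below 1 in each.

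A few granule and maturity genes were lower in these cells. Of 16 granule genes 3 were lower (Chga, Chgb and Pcsk1, median -0.29) and none higher, and of 22 maturity genes 3 were lower (Mafa, Slc2a2 and Pdx1, median -0.30), beside a median of -0.03 over all genes. Over the quartiles the granule list was at 307, 289, 261 and 222 UMIs per 10000. Ttr, transthyretin, was at 2.36 and 4.76 UMIs per 10000, 2.02-fold lower (1.83 to 2.23), and 2.22-, 1.99- and 3.37-fold lower in the treated libraries. Mitochondrial shares were 9.71% and 9.21% and ribosomal shares 14.2% and 12.8%.

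Nupr1 was the member of this list with the second highest CV, at 0 in 57.9% of cells, at 10.7 UMIs per 10000 at the 95th percentile and at 130 in the highest cell. Its nearest genes were Atf5 (0.39), Ddit3 (0.34) and Atf4 (0.31). The promoter of Nupr1 is shown because it holds the letters of the CCAAT enhancer-ATF element. It is the RefSeq sequence of GRCm38.p6, chr7:126625421-126625720 on the minus strand, with the CCAAT enhancer-ATF element TTGCATCA or its reverse TGATGCAA in capitals.
Nupr1: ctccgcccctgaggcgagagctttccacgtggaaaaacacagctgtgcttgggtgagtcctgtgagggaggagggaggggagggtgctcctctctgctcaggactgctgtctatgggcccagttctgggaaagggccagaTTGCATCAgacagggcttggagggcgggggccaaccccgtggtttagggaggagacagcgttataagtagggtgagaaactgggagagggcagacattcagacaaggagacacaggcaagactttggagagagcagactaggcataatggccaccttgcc
The letters were held by 3 of 13 members with a promoter (Chac1, Nupr1 and Aars) and by 0.929% of all promoters. A match describes the letters, and binding was not measured.

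With the unfolded protein score, 118 of 4432 genes were higher (2.66%) and 78 lower (1.76%). Among the 8 largest ratios upward were Fkbp11, a prolyl isomerase of the endoplasmic reticulum, at 2.93 and 0.828 UMIs per 10000 (3.53-fold, 3.03 to 4.13), Ppib, another such isomerase (2.03-fold), Hspa13 (2.02-fold) and Bhlha15, the secretory cell factor MIST1 (2.19-fold). Each was higher in all 3 treated libraries, by 1.26- to 2.88-fold. Hspa1a and Hspa1b had ratios of 10.6 and 9.34, and 3.52 and 2.41 without the 5 highest cells of each, but lay below 1 in every treated library.

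Among the lists, 5 of 10 integrated stress genes were higher (Atf4, Ddit3, Nupr1, Eif4ebp1 and Atf5, median 0.55) and 7 of 17 glycolysis genes (median 0.53). No maturity gene was higher and Kcnj11, a subunit of the ATP-sensitive potassium channel, was lower (1 of 23). In the treated libraries the integrated stress median was 0.36, 0.68 and 0.21 and the glycolysis median 0.22, 0.086 and 0.12. Of the 118 higher genes, 105 of 116, 112 of 118 and 109 of 118 were above 1 in the treated libraries, as were 48.4%, 48.3% and 53.3% of all tested genes. Insulin shares had medians of 45.3% in the upper and 37.6% in the lower quartile and mitochondrial shares 8.98% and 9.93%. Acinar UMIs numbered 272 and 662 and macrophage UMIs 26 and 297, or 272 and 283 and 26 and 28 without the 4 cells highest in each. The part of these in the result was not tested. Hspa5, the chaperone BiP, was at a median of 14.97 UMIs per 10000 and nearest to Manf at 0.65.

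Inducible heat shock transcripts were concentrated in few cells. Hspa1a was at 0 in 89.5% of β-cells and reached 392.2 UMIs per 10000 in the highest. The 39 cells with at least 10 UMIs per 10000 of Hspa1a, Hspa1b and Dnajb1 held 78.8% of these UMIs. They were shallower, at a median of 7326 UMIs outside the hormones against 9388 in the other 1131, and 25 of them lay in the 3 lowest depth deciles, where 326 of the others did. Their mitochondrial share was 6.18% against 9.64%, while their insulin share was 40.8% against 41.4%. The part of depth in the heat shock level was not tested.

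With the heat shock score, over 15 chaperones, 40 of 4409 genes outside its list were higher (0.907%) and 13 lower (0.295%). With totals from all UMIs, 204 of 4334 genes were past the fold (4.71%), 39 of them among these, and the median gene was at 0.23. The higher genes included Hmox1 (2.70-fold), Mt2 (2.32-fold), P4ha1 (1.97-fold), Ero1l (1.88-fold) and 9 of 17 glycolysis genes (median 0.59). Of the 40 genes, 36 were above 1 with IFN-γ, but 18 of 39 with IL-1β and 17 of 40 with both, where 49.4%, 45.4% and 49.2% of all tested genes were. The glycolysis median was 0.46 with IFN-γ, but -0.15 with IL-1β and -0.16 with both. No maturity gene, of 23, and no granule gene, of 16, was past the fold. Mitochondrial shares had medians of 8.24% in the upper and 10.7% in the lower quartile.

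The promoter of Hspa1a, which the heat shock factor HSF1 is known to bind, is shown with its heat shock element. It is the RefSeq sequence of GRCm38.p6, chr17:34972107-34972406 on the minus strand, and capitals mark GAANNTTC, which is its own reverse.
Hspa1a: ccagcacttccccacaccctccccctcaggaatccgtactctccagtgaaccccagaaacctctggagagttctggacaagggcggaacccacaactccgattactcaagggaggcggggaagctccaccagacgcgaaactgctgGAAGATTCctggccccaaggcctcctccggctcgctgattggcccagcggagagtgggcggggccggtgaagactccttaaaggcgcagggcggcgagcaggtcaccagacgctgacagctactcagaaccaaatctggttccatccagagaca
Of 12 list members with a promoter 6 held these letters (Hspa1a, Hsph1, Bag3, Dnaja1, Hspe1 and Chordc1), against 7.95% of all promoters.

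With the immediate early score, 66 of 4429 genes were higher (1.49%) and 8 lower (0.181%). Cebpd and Id2, both regulators of transcription known to respond to stimuli, were 3.39-fold (2.81 to 4.12) and 3.14-fold (2.53 to 3.93) higher, and above 1 in every treated library. The 3 largest ratios, for Lgals3, Apoe and Lcn2, rested on 1 or 2 cells, and Hspa1a went from 4.54 to 0.971 without its 5 highest cells. Of 14 heat shock genes 4 were higher (Hspa1a, Hspa1b, Dnajb1 and Hsph1), and Hspa1a was at 6.13, 1.68 and 2.51 and Hspa1b at 5.44, 1.87 and 2.34 in the treated libraries. No maturity, granule or unfolded protein gene was past the fold. Of the 66 genes, 51 of 62, 58 of 64 and 52 of 62 were above 1 in the treated libraries, as were 45.8%, 50.1% and 45.4% of all tested genes. After thinning to 5000 UMIs, 8 of 1264 genes were past the fold in either direction (0.633%), 4 of them among those above. With totals from all UMIs 121 of 4423 were (2.74%), 62 of them among those above.

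Over all 1170 cells the scores were also correlated in pairs, by Spearman's correlation of ranks within depth deciles, as a description. Of 78 pairs, 19 reached 0.2 in size, 8 positive and 11 negative, and 17 of these had the same sign in all 3 treated libraries. Integrated stress with granule genes had the largest by these totals, -0.47 (-0.31, -0.53 and -0.37 in the treated libraries), but was at -0.22 with totals from all UMIs, where maturity with oxidative stress genes was at -0.31. Insulin load with granule genes was at 0.41 (0.31, 0.35 and 0.45) and with maturity at 0.36 (0.30, 0.45 and 0.20), but with totals from all UMIs these went to -0.27 and -0.06. Maturity was at -0.39 with oxidative stress genes, -0.31 with integrated stress and -0.28 with glycolysis, and glycolysis at 0.34 with oxidative stress. With totals from all UMIs, maturity with integrated stress was at -0.17. The 2 pairs that changed sign were heat shock with oxidative stress genes (0.22) and oxidative stress genes with the mitochondrial share (-0.35).

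**Figure D5:**
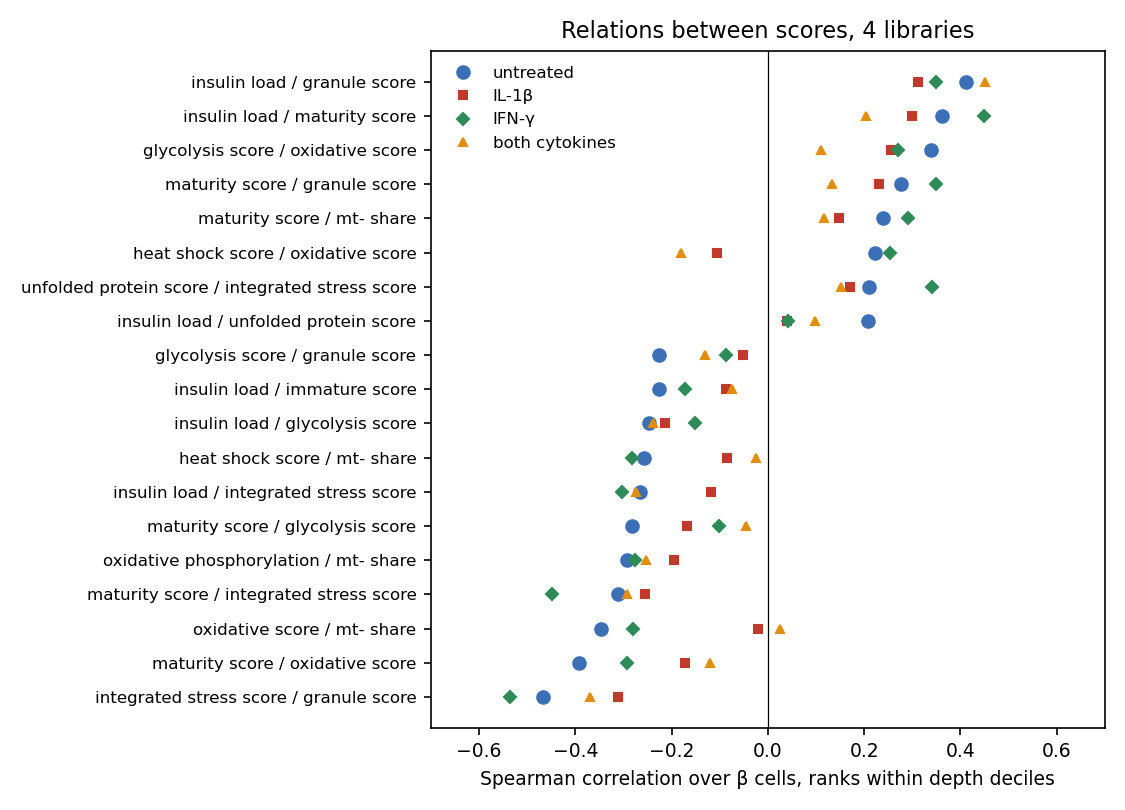
Spearman correlation between scores over β-cells, ranked within depth deciles (x axis), for the pairs of at least 0.2 in size in the untreated library (y axis), with the same value in the 3 treated libraries. The largest is -0.47 between integrated stress and granule genes, and most points of a pair lie on the same side of 0.

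Among single genes, Mafa was nearest to Ero1lb (0.50; 0.27, 0.42 and 0.22 in the treated libraries) and Slc2a2 (0.41), and farthest from Mt1 (-0.22). Slc2a2 was nearest to Mafa and Ppp1r1a (0.38) and farthest from Gapdh (-0.28). Nupr1 was farthest from Chga (-0.23). Correlations between sparse single genes of this size are weak and are given as values.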

How the data were processed

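Single-cell RNA-seq (10x Genomics 3′ chemistry, kit version 3 in the methods and version 2 in the labels) gave 4 libraries, of which the untreated one, with 3486 barcodes and 50731370 UMIs, is described. The authors counted UMIs with CellRanger, and per the file headers its version was 3.0.0. The submitters' processing notes list mm10. The deposited values are raw UMI counts per gene and barcode, without normalization.

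Analysis used Python 3.11.15 with pandas 2.3.3, numpy 2.4.6 and scipy 1.17.1. Cells were filtered and called as stated above, with no doublet caller. The members and gene lists were chosen with earlier results of these data known, and the integrated stress and glycolysis comparisons after seeing the data. Biological CVs were computed by moments (sum of squared deviations minus the mean, over the sum of squared means, square root). Scores were means of Pearson residuals with a variance of the mean plus its square over 100, over list members detected in at least 10% of β-cells. Quartiles were taken within 10 deciles of UMIs outside the hormone genes. The CV and quartile computations were tested on simulated data with known changes. Genes named were the 20 highest in level, the 20 highest in CV, list members, the 8 largest ratios each way per comparison, from which those with the clearest known role are given, and the 15 highest correlated pairs. Promoters come from RefSeq (GRCm38.p6), of which none was given for Ins2 and Mafa. Alternatives were other cell limits, Scrublet (scanpy 1.11.5, expected rate 0.05), thinning to 5000 UMIs, other totals, other minima, tertiles and summed scores. Intervals are at 95%. Some genes are not reported here.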

Additional observations from a re-analysis of the deposited data

How the results depend on the processing

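No paired analysis was possible because each condition had 1 library, and no replicate could be left out. A comparison of cells within 1 library of pooled islets shows counting error only, and the depth of most cells limits genes below about 10 CPM. The Scrublet run called 0 barcodes of 3486, so that leaving out its calls changed nothing. Leaving out the 5% with the highest scores was added after seeing the data and moved none of the 17 main values compared. Those barcodes held 43 β-cells, but none of the 8 with acinar or macrophage UMIs, so that this step could not remove these. Also added after seeing the data were leaving out the cells with acinar or macrophage UMIs, leaving out the 5 highest cells of each gene, thinning without depth bins, totals relative to the median gene, and the limit of 25% of cells.

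The share of UMIs from Ins1, Ins2 and Iapp, 47.6%, was 47.2% without an upper gene limit, 47.5% with a mitochondrial limit of 20%, and 47.7% both with insulin of at least 10% and without the cells with acinar or macrophage UMIs. Genes with a CV of at least 0.5, 1699, were 1010 after thinning to 5000 UMIs, 4085 over every gene with a UMI, and 579 over genes in at least 25% of cells.

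After thinning 1249 to 1273 genes had 200 UMIs, against 4387 to 4453, so that counts of genes past 1.5-fold are set beside shares of the genes tested. The shares, as reported and thinned, were 5.23% and 1.10% for insulin load, 5.52% and 3.81% for maturity, 1.20% and 1.66% for heat shock, 1.67% and 0.633% for immediate early, 4.42% and 6.25% for unfolded protein, 4.06% and 3.31% for integrated stress and 3.64% and 3.77% for glycolysis. Without depth bins the thinned share was 8.30% for insulin load. With thinning the counts were 14 for insulin load (231 as reported), 48 for maturity (242), 21 for heat shock (53), 8 for immediate early (74), 78 for unfolded protein (196), 42 for integrated stress (181) and 48 for glycolysis (160). With thinning and no depth bins they were 109, 61, 26, 6, 96, 57 and 50, and with at least 500 UMIs 99, 93, 20, 19, 89, 70 and 56 in the same order. With totals from all UMIs they were 989 for insulin load, 204 for heat shock, 121 for immediate early and 244 for glycolysis, and relative to the median gene 85 for insulin load. The median gene then stood at -0.44 for insulin load, 0.23 for heat shock, 0.19 for glycolysis, 0.17 for integrated stress and 0.10 for both immediate early and unfolded protein on the log2 scale. Heat shock had 31 without the 5 highest cells of each gene, and immediate early 121 without an upper gene limit.

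Correlations after thinning, with totals from all UMIs, and after thinning without depth bins were 0.028, -0.058 and 0.28 for insulin load with maturity, -0.10, -0.27 and 0.35 for insulin load with granule genes, -0.30, -0.22 and -0.35 for integrated stress with granule genes, -0.14, -0.17 and -0.21 for integrated stress with maturity, and -0.26, -0.31 and -0.25 for maturity with oxidative stress genes. With summed UMIs as the score insulin load with maturity was 0.43. Bins of depth on thinned cells hold insulin and the rest at a fixed sum, so that the depth bins remove the insulin load itself there.

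Of 1664 values of named genes under alternatives, 1521 kept direction and side of the fold, 122 fell below the fold and 21 reversed. The 1521 include values that could not change. Leaving out the Scrublet calls removed no barcode, and the higher minimum of UMIs only chose which genes were counted. The count of kept values therefore overstates how far the values were tested. On the log2 scale, thinning within depth bins reversed C1qa (-0.16), Hs3st6 (-0.060), Cdkn1a (0.053) and Nupr1 (0.15) in the insulin comparison, where the bins remove the contrast, AI480526 (0.040, and 0.11 without depth bins) with heat shock, and Lcn2 (-0.20) and, without depth bins, Cryl1 (0.029) and Lcn2 (-0.17) with immediate early. Leaving out the 5 highest cells reversed Lgals3 (0.33) with insulin, Apoe (0.0019) with maturity, Hspa1a (-0.043) with immediate early, and Lgals3 (0.40) and Apoe (1.14) with unfolded protein. Without the cells with acinar or macrophage UMIs, Lgals3 was at 0.23 with maturity and Apoe at 0.60 with unfolded protein, and with insulin of at least 10% Apoe was at 0.61 there and at -1.70 with glycolysis. Lcn2 was at -1.55 with summed immediate early scores, and at 2.81 with totals from all UMIs and 2.71 relative to the median gene with unfolded protein. The cause was not tested.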

Other observations

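Of 22 genes that β-cells are known to keep off, called disallowed genes, 17 were under 1 CPM and 5 had no UMI in the β-cells (Pdgfra, Acot7, Igfbp4, Maf and Fcgrt), where 63.2% of all 31053 genes were under 1 CPM and 47.3% had no UMI. Dap stood at 256 CPM in 93.5% of cells and Ly6e at 72.6 CPM in 63.2%, and together the list held 341 CPM. The lactate dehydrogenase gene Ldha, another of them, was detected in 3.93% of β-cells against 86.4% of cells with no hormone at 1%. Of 17 cell cycle genes, 12 were under 1 CPM, a share near that of all genes. Without cytokine, Nos2, inducible nitric oxide synthase, had no UMI in β-cells, whereas the IL-1 receptor gene Il1r1 stood at 240 CPM and the chemokine gene Cxcl10 at 2.16 CPM.

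A small set of β-cells carried Rbp4, the retinol binding protein gene known in mouse islets from δ-cells. In this library 97.6% of the 82 α-cells also had it, at 2919 CPM against 35.5 CPM in β-cells, and 95.1% of them had Pyy, at 10896 CPM. The limit of 3 UMIs was chosen after its values were seen, and 47 of the 1170 β-cells met it. Per 10000 UMIs outside the hormones, Pyy, peptide YY, was at 77.5 in these cells and 2.58 in the others, and Cd81 at 4.11 and 0.826, a ratio of 4.98 (4.199 to 5.87). Tspan8, a tetraspanin gene, had a ratio of 5.10 and Ppy 5.22. Mafa, Ucn3, Slc2a2 and G6pc2 had ratios of 0.63, 0.58, 0.62 and 0.62, and Pdx1 1.09 (0.90 to 1.30). Their insulin share was 37.0% against 41.5%, and their median depth outside the hormones 8631 against 9366 UMIs. By the same limit 32, 27 and 34 β-cells were found with IL-1β, IFN-γ and both, with Pyy 36.5-, 22.5- and 35.9-fold and Cd81 5.76-, 4.58- and 3.68-fold higher than in the other β-cells. With IFN-γ, 1 cell held 67.8% of the Pyy UMIs, and without the highest cell of each library the Pyy ratios were 27.7, 7.63 and 26.2, and 26.9 in the untreated library. Sst was 73.5- and 108-fold higher there with IL-1β and with both, while it was 1.32-fold in the untreated library and 2.50-fold with IFN-γ, or 1.15-fold (0.62 to 1.95) without the highest cell there. The δ-cell factor gene Hhex had 0, 3, 0 and 1 UMIs in these cells of the untreated library and the 3 treated ones, in the order above. The part of barcodes with 2 cells was not tested.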
